A study of Homo sapiens with 9 samples.

Results

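The arrays set the dual inhibitor corin directly against the HDAC inhibitor MS-275 in WM983B, an established melanoma line of human origin. Of the 9 arrays of the series, the 3 arrays of cells kept for 24 h in 2.5 µM corin were set against the 3 arrays of cells kept for the same time in 2.5 µM MS-275, and the 3 arrays of vehicle (DMSO) cells entered no test. They are given only as levels, since a comparison of each inhibitor with vehicle would share arrays with this one. The labels spell the compound corin2, taken here as corin, compound 2 of the study. All cells came from 1 line, at 1 dose and 1 time, so a stronger hold on the same targets and an action on a further target cannot be told apart on these arrays. The design text calls the arrays biological triplicates. Where cultures were not treated apart, the p-values below measure a spread that may be technical.

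Histone deacetylases (HDACs) of class I remove acetyl groups from histone tails and work inside larger assemblies, among them CoREST, SIN3 and NuRD. In CoREST, HDAC1 or HDAC2 sits beside the demethylase LSD1 (KDM1A), which takes methyl groups off lysine 4 of histone H3, and the complex is known for keeping neuronal and other lineage genes silent. MS-275 (entinostat) is a benzamide that binds the zinc of class I HDACs. Corin joins an aryl benzamide zinc binding group of that kind to a tranylcypromine-type amine oxidase warhead aimed at LSD1, while part of MS-275 is not kept in it, so the pair differs by more than the warhead alone.

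Values are deposited log2 signals after RMA, a method that corrects, normalizes and summarizes the probes of a transcript. All 16098 probes with a gene symbol, of 53617 on the array, were tested with limma. They stand for 14884 genes, and a log2 difference is always the mean of the corin arrays minus the mean of the MS-275 arrays. The call needed a difference of 2-fold or more together with an adjusted p (Benjamini-Hochberg) below 0.05. Array medians lay between 4.05 and 4.12, so each difference is read against the remaining transcripts of an array, and fewer cells of a type and less RNA per cell cannot be told apart. The number of arrays limits the precision. No background level is given for these probes. Where a group's mean lies at or below the array medians, as for ULBP1 and PRAMEF4 with MS-275 and HAS2 and KIF20A with corin, the low side is not shown to be above background and the size of the difference is not settled. Across genes, which are not independent replicates, corin arrays correlated with MS-275 arrays at r of 0.954 to 0.955, against 0.989 to 0.991 among corin arrays and 0.994 among MS-275 arrays. The median SD of a gene was 0.135 log2 units on the corin arrays and 0.103 on the MS-275 arrays. The melanocyte markers SOX10, MLANA, TYR, MITF and PMEL had vehicle means of 8.09 (MITF) to 10.56 (PMEL). Of the markers of other cell types, 0 of 5 for keratinocytes, 0 of 3 for fibroblasts and 0 of 6 for immune cells were called.

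At the matched dose the compounds differed at part of the genes. In the limma fit, 358 genes had a higher signal under corin (2.41% of the genes tested) and 542 a lower one (3.64%), together 900 genes or 6.05%. On the arrays, the 3 corin values lay wholly above or wholly below the 3 MS-275 values for all 900, and among all genes tested 21.4% lay wholly above and 25.2% wholly below. The rule that named the largest differences also required this, so it is no added support for a single gene. Counted as probes with a symbol, 403 were higher (2.5%) and 562 lower (3.49%). Whatever the fold, 2405 genes (16.2%) were higher and 2859 (19.2%) lower at an adjusted p under 0.05 in limma. Most genes lay close together under both compounds, and for 9345 genes (62.8%) the whole 95% interval of the difference lay within 1.5-fold. The typical interval reached 0.246 log2 units to either side, the median over genes.

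Vehicle levels place these differences. For 302 of the 358 higher genes the vehicle mean lay below both inhibitors, for 56 between them and for 0 above both. The median member stood 1.84 log2 units above vehicle with corin and 0.41 with MS-275, and in 220 of the 358 MS-275 was within 1.5-fold of vehicle. Among the 542 lower genes, vehicle lay above both inhibitors in 484, between them in 55 and below both in 3. Their median was -1.90 against vehicle with corin and -0.56 with MS-275, which was within 1.5-fold of vehicle in 269 of the 542. For most called genes both inhibitors thus lay on the same side of vehicle, corin farther out. Over all 14884 genes vehicle was below both in 33.3%, between in 24.2% and above both in 42.5%. MS-275 was within 1.5-fold of vehicle in 13192 of the 14884, a larger share than among the called genes of either direction. The MS-275 arrays enter both sides of this description, so it carries no test.

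**Figure D1:**
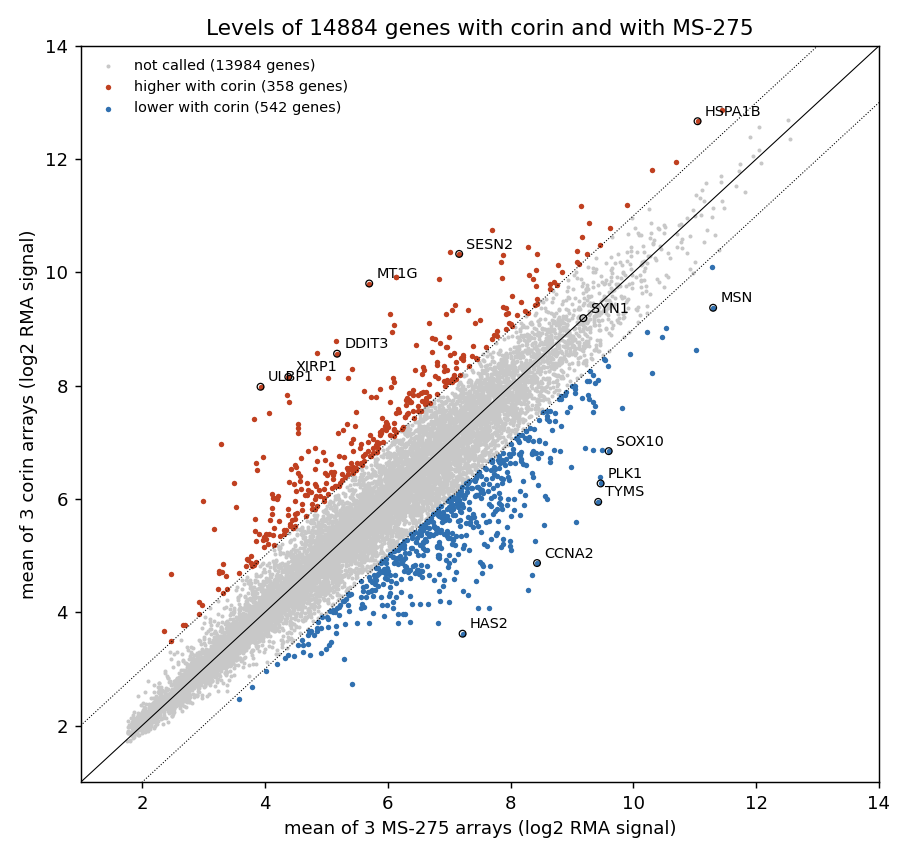
Mean log2 RMA signal of each of 14884 genes on the 3 MS-275 arrays (x axis) and the 3 corin arrays (y axis), with equality as a solid line and 2-fold differences as dotted lines. Red points mark 358 genes called higher and blue points 542 called lower with corin, and circled genes are named in the text, with SYN1 on the line of equality.

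MT1G, a metallothionein that binds zinc and copper, showed the largest difference upward. Its log2 signal was 5.76, 5.38 and 5.96 on the MS-275 arrays and 9.79, 9.94 and 9.68 on the corin arrays, with 4.51, 3.92 and 3.81 on the vehicle arrays. The lowest corin array exceeded the highest MS-275 array by far more than either group's spread. The difference was 4.11 (95% interval 3.77 to 4.44), or 17.2-fold, at a limma adjusted p of 2.6e-07. ULBP1, a stress-induced ligand that natural killer cells see through NKG2D, read 3.69, 4.04 and 4.05 on the MS-275 arrays and 8.04, 8.04 and 7.86 on the corin arrays. With MS-275 it stood less than 1.2 log2 units above its vehicle signals of 2.98, 2.95 and 3.19. Its limma adjusted p for corin against MS-275 was 1.2e-07. XIRP1, an actin-binding protein of striated muscle, lay within 0.4 log2 units of vehicle under MS-275, with 4.35, 4.30 and 4.49 against 4.12, 4.20 and 4.21 with vehicle. On the corin arrays it read 8.13, 8.31 and 8.03, a log2 difference of 3.78 (3.54 to 4.01).

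Further genes at the top came from epidermal and germline families. LCE1F, a protein of the cornified envelope, read 4.90, 4.73 and 4.90 on the MS-275 arrays and 8.58, 8.64 and 8.54 on the corin arrays, and the secreted protease inhibitor SLPI read 5.32, 5.04 and 5.12 on the MS-275 arrays and 8.82, 8.72 and 8.81 on the corin arrays. In both genes each group of arrays held together within 0.3 log2 units, and the differences were 3.75 and 3.62. The keratin-associated protein KRTAP2-3 was already above its vehicle signals of 3.95, 4.01 and 4.22 with MS-275, at 7.27, 6.97 and 6.81, and higher still with corin, at 10.37, 10.38 and 10.34. TMC5, a transmembrane channel-like protein, and PRAMEF4, of the PRAME family, differed by 3.45 and 3.69, the latter against MS-275 signals of 3.48, 3.33 and 3.02 below the array medians. USP17L12 and USP17L9P, copies of a deubiquitinase gene, carried identical values on every array (3.79) and cannot be told apart, and their relative USP17L15 differed by 3.33. PRAMEF4 too belongs to a family of near-identical copies, so its share of the signal is uncertain.

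Most measured genes of mitosis and of DNA replication were lower with corin. Of 52 measured genes of mitosis and the kinetochore, 49 (94.2%, against 3.64% of all genes) were lower and 0 higher. The median difference was -1.97, beside -0.03 over all genes. Of 29 genes of DNA replication and nucleotide synthesis, 22 (75.9%, against 3.64%) were lower and 0 higher, with a median of -1.75. The 49 mitotic genes stood at a median of -0.80 against vehicle with MS-275 and -2.87 with corin, and MS-275 lay on the same side of vehicle as corin for all 49.

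PBK, a mitotic kinase, had the largest difference of the mitotic genes, with 8.34, 8.35 and 8.34 on the MS-275 arrays and 4.56, 4.84 and 4.58 on the corin arrays. The vehicle arrays read 9.33, 9.26 and 9.32, so about 1 log2 unit separated vehicle from MS-275 and 12.9-fold separated MS-275 from corin. KIF20A, a kinesin of cytokinesis, read 7.52, 7.75 and 7.70 on the MS-275 arrays and 4.33, 3.73 and 4.16 on the corin arrays (-3.58, -3.93 to -3.24). PLK1, the polo-like kinase that drives entry into and passage through mitosis, gave 9.48, 9.50 and 9.43 on the MS-275 arrays and 6.10, 6.36 and 6.37 on the corin arrays, from 10.41, 10.41 and 10.43 with vehicle. The difference between the inhibitors was -3.19 (-3.42 to -2.96, limma adjusted p = 1.6e-07). The spindle proteins HMMR (-3.40) and KIF11 (-3.14), the topoisomerase TOP2A (-3.06) the kinetochore subunit NDC80 (-3.01) and the spindle protein SPAG5 (-3.00, outside the list) came next. AURKB, the kinase of the chromosomal passenger complex, and its partner BIRC5 (survivin) differed by -2.59 and -2.44, and MKI67, the proliferation marker Ki-67, by -2.04. Only PTTG1 (securin, -0.76), RACGAP1 (-0.72) and the ubiquitin-conjugating enzyme UBE2S (-0.20) were not called, and for UBE2S the interval of -0.46 to 0.06 lay within 1.5-fold.

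Replication genes followed the same order of groups. TYMS, the thymidylate synthase that makes dTMP, read 9.47, 9.41 and 9.41 on the MS-275 arrays and 6.08, 5.84 and 5.93 on the corin arrays, and 10.42, 10.44 and 10.40 with vehicle. That is 11.1-fold lower with corin than with MS-275 (limma adjusted p = 9.4e-08). RRM2, a subunit of ribonucleotide reductase, read 8.42, 8.60 and 8.35 on the MS-275 arrays and 6.71, 6.63 and 6.82 on the corin arrays (-1.73, limma adjusted p = 3.1e-06). All 6 measured subunits of the MCM2 to MCM7 helicase were lower, from -2.16 for MCM5 to -1.06 for MCM2. Of the GINS complex, GINS2 (-2.54) and GINS1 (-1.80) were lower, as were the checkpoint mediator CLSPN (-2.48) and DSCC1 (-2.32), which helps load the clamp, while GINS3 and GINS4 differed by -0.67 and -0.50 and were not called. PCNA, the sliding clamp of the polymerases, did not follow. Its signals were 9.51, 9.50 and 9.52 with MS-275, 9.65, 9.47 and 9.45 with corin and 10.13, 10.04 and 10.04 with vehicle. The groups of both inhibitors overlapped, and the interval of -0.19 to 0.22 placed them within 1.5-fold of each other.

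Among 37 cyclins, cyclin-dependent kinases (CDKs), their inhibitors and E2F factors, 17 were lower, 1 was higher and the median was -0.77. These are 45.9% lower, against 3.64% of all genes, and 2.7% higher, against 2.41%. CCNA2, the cyclin A of S phase and mitosis, read 8.38, 8.42 and 8.49 on the MS-275 arrays and 5.03, 4.78 and 4.80 on the corin arrays, a difference of -3.56 (-3.79 to -3.34). CDK1, the main mitotic CDK, differed by -2.89, its cyclins CCNB1 and CCNB2 by -2.38 and -2.41, and the transcription factors MYBL2 and FOXM1, which drive late cell cycle genes, by -3.00 and -2.19. Of factors that act at entry into S phase, E2F3 differed by -2.50, E2F1 by -1.51 and the cyclin CCNE2 by -1.62, and CCND1 (cyclin D1) at -0.69 was not called. CKS2, a small subunit that binds CDKs, went the other way. It read 9.32, 8.98 and 9.19 on the MS-275 arrays and 10.63, 10.69 and 10.57 on the corin arrays, and 9.82, 9.72 and 9.69 with vehicle, so that MS-275 lay below vehicle and corin above it (1.46, 1.22 to 1.71, limma adjusted p = 1.2e-05). Among 27 DNA repair genes, 9 were lower (33.3%, against 3.64% of all genes) and 0 higher (median -0.70). They were led by the glycosylases NEIL3 (-2.19) and UNG (-1.66), the recombination motor RAD54L (-2.02) and EME1 (-1.82), a nuclease subunit. EME1 was at -0.98 and not called when its probes were averaged. CHEK1, the checkpoint kinase that responds to stalled forks, differed by -1.42, and ATR, its upstream kinase, by 0.15, within 1.5-fold.

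Late cell cycle promoters are known for CCAAT boxes and for the cell cycle genes homology region, TTTGAA. The 130 bases before the start of PLK1, KIF20A and CCNA2 are shown because KIF20A and CCNA2 have the largest difference of their lists among genes with a promoter sequence and PLK1 held both motifs, with the letters CCAAT or TTTGAA of either strand in capitals. They are RefSeq sequences on GRCh38.p14, at chr16:23678759-23678888 on the plus strand, chr5:138178982-138179111 on the plus strand and chr4:121823884-121824013 on the minus strand.
PLK1: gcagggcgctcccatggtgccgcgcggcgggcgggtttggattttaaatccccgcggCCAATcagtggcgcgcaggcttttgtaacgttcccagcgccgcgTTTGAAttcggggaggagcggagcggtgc
KIF20A: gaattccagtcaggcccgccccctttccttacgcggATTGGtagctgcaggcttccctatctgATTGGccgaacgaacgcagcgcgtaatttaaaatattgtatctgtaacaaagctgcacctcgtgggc
CCNA2: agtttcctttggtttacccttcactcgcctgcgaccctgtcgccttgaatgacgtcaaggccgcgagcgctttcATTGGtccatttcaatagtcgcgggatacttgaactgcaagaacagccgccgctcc
PLK1 held both motifs, with TTTGAA 29 to 24 bases and CCAAT 73 to 69 bases before the start. KIF20A held ATTGG, the other strand of CCAAT, at 2 places, and CCNA2 at 1. In the 250 bases before the start, TTTGAA on either strand stood in 19 of 44 mitotic genes with a promoter sequence (43.2%), against 10.4% of 10749 genes tested and 13.6% of all 27305 promoters. CCAAT on either strand stood in 32 of the 44 (72.7%), against 34.3% of genes tested and 33.0% of all promoters. In the replication list TTTGAA was found in 2 of 24 genes (8.33%) and CCAAT in 16 (66.7%). The letters TTTNNCGC, an E2F-like motif, stood in 7 of the 24 (29.2%), against 7.72% of genes tested. Among all called genes CCAAT stood in 48.5% of the 235 higher genes with a sequence and in 39.0% of the 441 lower genes, while TTTGAA stood in 9.36% and 18.8%. A match is a description of letters and not a bound site.

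**Figure D2:**
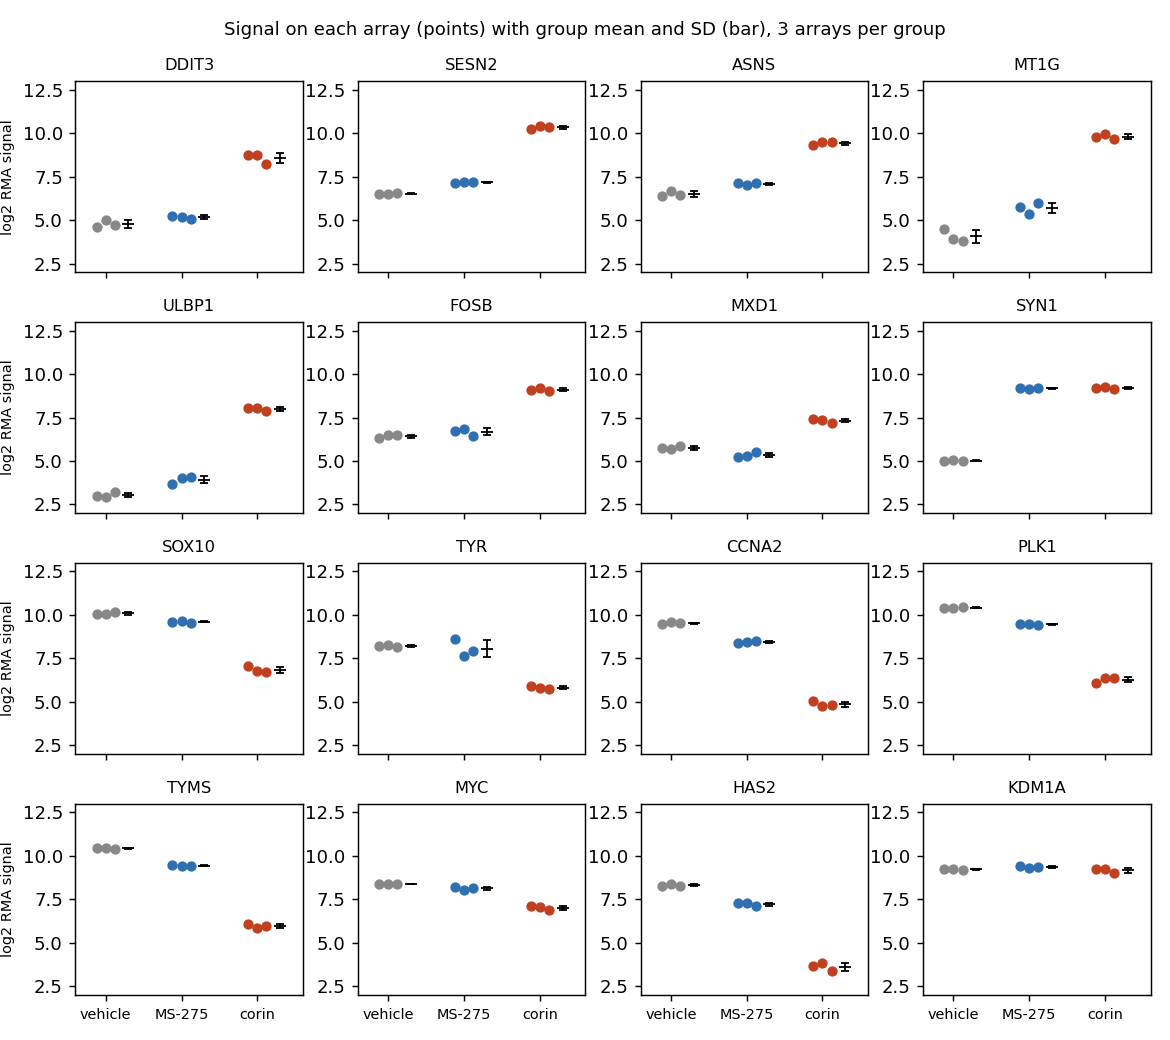
Log2 RMA signal (y axis) of 16 genes on each of the 9 arrays, grouped as vehicle, MS-275 and corin, with the group mean and SD (n = 3) as a bar beside the points. DDIT3, SESN2, ASNS, MT1G, ULBP1, FOSB and MXD1 stand apart upward with corin, SOX10, TYR, CCNA2, PLK1, TYMS, MYC and HAS2 downward, while SYN1 overlaps between the inhibitors and KDM1A lies within 1.5-fold, its corin arrays below its MS-275 arrays.

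Part of the integrated stress response was higher with corin. In this response, kinases that sense amino acid lack, ER stress or other insults phosphorylate the initiation factor eIF2α, and the factor ATF4 then switches on genes for amino acid supply and cell death. Of 23 measured genes, 6 were higher with corin (26.1%, against 2.41% of all genes) and 1 lower (4.35%, against 3.64%). The median difference was 0.48 beside -0.03 over all genes. DDIT3, the proapoptotic factor CHOP, read 5.25, 5.21 and 5.07 on the MS-275 arrays and 8.73, 8.75 and 8.22 on the corin arrays. Vehicle read 4.62, 5.03 and 4.70, so MS-275 was near vehicle and all corin arrays stood above both, at 10.5-fold over MS-275 (limma adjusted p = 6.2e-07). The leucine sensor and antioxidant SESN2 gave 7.14, 7.18 and 7.18 on the MS-275 arrays and 10.25, 10.39 and 10.34 on the corin arrays, from 6.51, 6.49 and 6.55 with vehicle (3.16, 2.97 to 3.36). ASNS, asparagine synthetase, gave 7.11, 7.04 and 7.16 on the MS-275 arrays and 9.33, 9.48 and 9.47 on the corin arrays (2.33, 2.12 to 2.53). In these 3 genes the arrays of a group lay within 0.6 log2 units of each other.

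The other higher members were the factor ATF3 (2.15), the mTORC1 inhibitor DDIT4 (1.13) and TRIB3 (1.10), a pseudokinase that restrains the response. ATF4 itself differed by 0.80 (0.61 to 0.99, limma adjusted p = 9.8e-05), below 2-fold. ATF5, another factor of the pathway, was lower, at 5.91, 5.84 and 5.65 on the MS-275 arrays and 4.38, 4.57 and 4.88 on the corin arrays (-1.19). The serine pathway genes PHGDH, PSPH and PSAT1 differed by -0.13, 0.21 and 0.34, all within 1.5-fold. Of 15 measured amino acid carriers and aminoacyl-tRNA synthetases, 1 was higher (6.67%, against 2.41% of all genes). This was the synthetase CARS1, at 1.01. Its call ended without corin replicate 2 (0.94), without MS-275 replicate 2 (0.97) and under median centring (0.99).

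In the unfolded protein response of the endoplasmic reticulum (ER), 1 of 14 genes was called, as higher (7.14%, against 2.41% of all genes). This was the sensor kinase ERN1 (IRE1α), with 6.61, 6.55 and 6.55 on the MS-275 arrays and 8.42, 8.37 and 8.19 on the corin arrays (1.76, 1.54 to 1.97). The sensor EIF2AK3 (PERK) differed by 0.95 and was called without MS-275 replicate 1, at 1.01. XBP1 (0.21), ATF6 (0.07) and the chaperones CALR (0.12) and CANX (-0.12) stayed within 1.5-fold. Of 14 heat shock genes, only HSPA1A and HSPA1B, the inducible HSP70 pair, were called (14.3%, against 2.41% of all genes called higher). HSPA1B read 11.05, 11.03 and 11.05 on the MS-275 arrays and 12.70, 12.66 and 12.65 on the corin arrays, and 11.19, 11.22 and 11.22 with vehicle, a difference of 1.62, and HSPA1A differed by 1.44. The pair is nearly identical in sequence, so their signals may not be separate. The small heat shock protein HSPB1 stood at -0.65, HSPD1 at 0.18 and HSPH1 at 0.27.

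A motif search was run on these promoters as well. ASNS is shown because it holds the C/EBP-ATF response element letters TGATGNAA (in capitals, GRCh38.p14 chr7:97872409-97872538, minus strand), bound by ATF4 with its partners in this gene.
ASNS: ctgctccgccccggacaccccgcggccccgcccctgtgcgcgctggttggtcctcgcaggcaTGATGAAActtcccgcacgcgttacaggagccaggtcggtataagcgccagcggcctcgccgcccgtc
The match lay 68 to 61 bases before the start. These letters, on either strand, stood in 3 of 19 genes of the stress list (15.8%), against 1.95% of genes tested and 3.19% of all promoters. Among all genes called, they stood in 3.40% of the higher and 2.27% of the lower genes.

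Metallothioneins, which buffer zinc and copper and are switched on by the metal sensor MTF1, split within the family. Of 11 genes of metallothioneins and zinc transport measured, 3 were higher (27.3%, against 2.41% of all genes) and 0 lower (median 0.14). MT1G has been given above. MT1X read 8.92, 8.99 and 8.90 with vehicle and 10.72, 10.65 and 10.72 with MS-275, so it already stood above vehicle there, and with corin its mean of 11.94 ± 0.0582 (SD, n = 3) lay a further 2.38-fold above. MT3, the growth inhibitory factor of brain, read 5.05, 4.81 and 4.99 on the MS-275 arrays and 6.95, 6.93 and 6.61 on the corin arrays, and the MS-275 arrays overlapped vehicle at 4.49, 4.90 and 4.78. MT2A, in many tissues the main isoform, showed 8.68, 8.76 and 8.95 on the MS-275 arrays and 8.44, 8.69 and 8.67 on the corin arrays, with overlapping groups and a difference of -0.19 (-0.44 to 0.06), within 1.5-fold. MT1E (0.96) and MTF1 (0.53) were higher at an adjusted p under 0.05 in limma but below 2-fold, and MT1F, MT1M and MT1B lay within 1.5-fold. The promoter of MT1X is given because it carries several metal response elements, TGCACNC or TGCGCNC on either strand, in capitals (GRCh38.p14 chr16:56682340-56682469, plus strand).
MT1X: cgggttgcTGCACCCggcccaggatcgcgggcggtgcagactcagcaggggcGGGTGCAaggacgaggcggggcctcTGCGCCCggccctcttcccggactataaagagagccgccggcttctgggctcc
These letters stood in 5 of 6 genes of the list with a sequence (83.3%). They are common, in 30.0% of genes tested and 24.7% of all promoters, and stood in 25.5% of the higher and 28.8% of the lower genes.

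Other stress lists held single calls or none, except the p53 targets. Of 13 genes of the NRF2 oxidative stress response, 1 was called, as higher (7.69%, against 2.41% of all genes). This was HMOX1, heme oxygenase, with 6.95, 7.03 and 7.23 on the MS-275 arrays and 7.85, 8.19 and 8.35 on the corin arrays (1.06). Its call ended without corin replicate 3 (0.95) or MS-275 replicate 1 (just below 2-fold). Of 15 measured p53 targets, 3 were higher (20%, against 2.41% of all genes), SESN2, the kinase PLK3 (1.33) and PMAIP1 (NOXA, 1.00), whereas BBC3 (PUMA) and SESN1 lay within 1.5-fold and BAX was at -0.56. SESN2 also counts in the integrated stress response list, and the call of PMAIP1 ended in some settings, given with the BCL2 family below. Of 28 genes of lysosome and autophagy, 0 were called by limma at 2-fold, with 11 higher and 4 lower at an adjusted p under 0.05 alone. At that threshold 16.2% of all genes were higher and 19.2% lower. The p53 target CDKN1A, which the study names, has no symbol-bearing probe here and was not analysed.

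Immediate early genes, the factors and phosphatases that cells make within minutes of a stimulus, were in part higher with corin at 24 h. Of 26 measured, 8 were higher (30.8%, against 2.41% of all genes) and 0 lower, with the list median at 0.57. FOSB, a partner of JUN in AP-1, read 6.71, 6.85 and 6.46 on the MS-275 arrays and 9.09, 9.20 and 9.03 on the corin arrays. Vehicle read 6.31, 6.48 and 6.47, which overlaps the MS-275 arrays, and corin stood 5.39-fold above MS-275 (limma adjusted p = 9.8e-07). DUSP1, the phosphatase that switches off p38 and JNK, stood at 3 separate levels, 7.10, 7.11 and 7.04 with vehicle, 8.23, 8.33 and 8.29 with MS-275 and 10.43, 10.43 and 10.50 with corin. JUN did the same, with 8.31, 8.31 and 8.30 on the MS-275 arrays and 9.92, 10.01 and 9.91 on the corin arrays and 7.25, 7.33 and 7.27 with vehicle. SIK1, a kinase induced by cAMP, gave 6.53, 6.56 and 6.59 on the MS-275 arrays and 8.30, 8.14 and 8.16 on the corin arrays (1.64, 1.44 to 1.84), and KLF2, EGR1 and JUNB differed by 1.43, 1.15 and 1.08. FOS stood well above vehicle with MS-275 already. It read 6.27, 6.12 and 6.37 with vehicle and 7.66, 7.78 and 7.64 on the MS-275 arrays and 8.25, 8.40 and 7.99 on the corin arrays, a difference of 0.52 below 2-fold. KLF6, KLF10, SRF, IER5, MAFF, FOSL2 and CCN2 lay within 1.5-fold.

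The output of the MAP kinase pathway, which is active in most melanomas, did not move as 1 block. Of 19 genes, 2 were higher (10.5%, against 2.41% of all genes) and 1 lower (5.26%, against 3.64%). The ERK phosphatase DUSP5 was higher (1.33, but 0.79 and not called as the mean of its probes), as was the kinase MAP2K3 (1.01), whose call ended under both other normalizations (0.99 in each), without corin replicate 1 (0.99) and, just below 2-fold, without corin replicate 2. The ETS factor ETV4 was lower, with 7.92, 7.91 and 7.80 on the MS-275 arrays and 6.42, 6.56 and 6.09 on the corin arrays (-1.52). DUSP6 (-0.38), SPRY2 (-0.90), CCND1 and FOSL1 (-0.42) were below zero without a call, and DUSP4 and SPRY4 within 1.5-fold.

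In the MYC and MAX network, MXD1 and MYC moved apart. MXD1 (MAD1), which pairs with MAX and represses MYC targets, read 5.22, 5.31 and 5.49 on the MS-275 arrays and 7.40, 7.36 and 7.21 on the corin arrays, and 5.72, 5.67 and 5.86 with vehicle. MS-275 thus lay below vehicle and corin above it, at 3.95-fold over MS-275 (limma adjusted p = 1.7e-06). MYC read 8.21, 8.05 and 8.17 on the MS-275 arrays and 7.10, 7.05 and 6.89 on the corin arrays (-1.13, -1.35 to -0.91), and 8.40, 8.40 and 8.41 with vehicle, so that only the corin arrays stood apart from the others by more than 0.5 log2 units. Spermidine synthase, SRM, fell from 10.38, 10.20 and 10.33 with MS-275 to 8.15, 8.26 and 8.26 with corin (-2.08), yet ODC1, which catalyses the preceding step of polyamine synthesis, rose by 1.31. MAX differed by 0.60, MXI1 by -0.62 and MXD3 by -0.47, none of them called, and NCL, FBL, NOLC1, LDHA, MNT and MXD4 lay within 1.5-fold. Altogether 2 of the 21 genes were higher (9.52%, against 2.41% of all genes) and 2 lower (9.52%, against 3.64%).

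**Figure D3:**
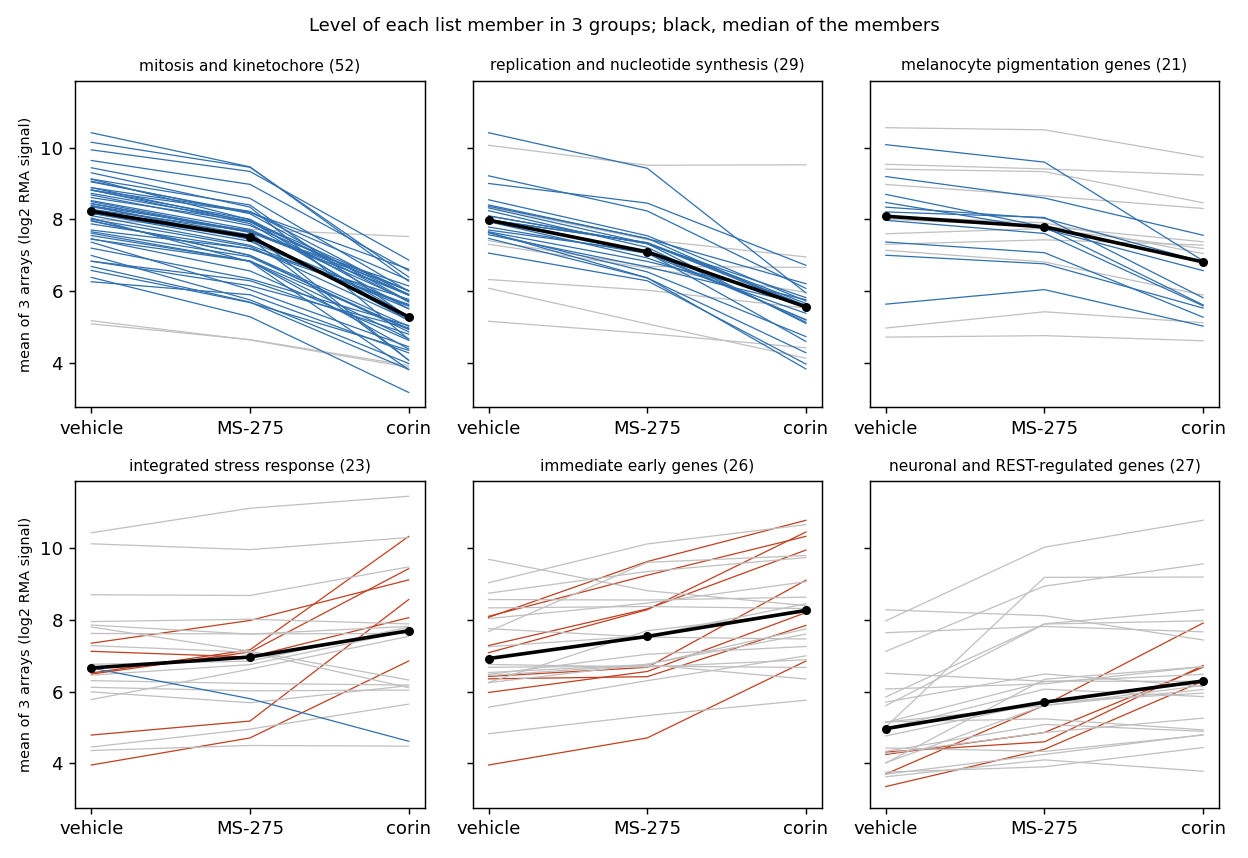
Mean log2 RMA signal (y axis) of each member of 6 gene lists with vehicle, MS-275 and corin, with the number measured in brackets. Red and blue lines are members called higher or lower with corin than with MS-275, grey lines are not called, and the black line joins the medians of the members, which for the mitotic list run 8.23, 7.52 and 5.28.

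Genes of the melanocyte were lower with corin. The factor SOX10 specifies the pigment lineage and, with MITF, drives the enzymes and structural proteins of the melanosome. Of 21 pigmentation genes measured, 10 were lower (47.6%, against 3.64% of all genes), 0 higher, and the median was -0.92. SOX10 read 9.61, 9.63 and 9.56 on the MS-275 arrays and 7.05, 6.76 and 6.72 on the corin arrays, and 10.04, 10.06 and 10.16 with vehicle. MS-275 stayed within 0.7 log2 units of vehicle on every array, while corin stood 6.74-fold below MS-275 (limma adjusted p = 3.9e-07). TYR, the tyrosinase that starts melanin synthesis, read 8.59, 7.64 and 7.93 on the MS-275 arrays and 5.92, 5.77 and 5.75 on the corin arrays. Its MS-275 arrays spread over almost 1 log2 unit and overlapped vehicle (8.22, 8.25 and 8.16), and every corin array lay below them (-2.24, -2.72 to -1.77).

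MLANA, the melanosomal antigen MART-1, gave 7.86, 7.86 and 7.66 on the MS-275 arrays and 5.36, 5.77 and 5.71 on the corin arrays (-2.18), and TYRP1, which acts after TYR in the pathway, gave 7.59, 7.73 and 7.51 on the MS-275 arrays and 5.61, 5.64 and 5.51 on the corin arrays (-2.02). Adhesion molecule CHL1 (-1.80), S100A1 (-1.24), the melanosome receptor GPR143 (-1.22), the melanosomal transporter OCA2 (-1.16), and the receptors EDNRB (-1.04) and KIT (-1.02) completed the 10. MITF itself read 7.85, 8.04 and 7.82 on the MS-275 arrays and 7.07, 7.10 and 6.96 on the corin arrays, -0.86 and below 2-fold, and PMEL, the fibril protein of the melanosome, differed by -0.76. MC1R (-0.14), GPNMB (-0.17) and APOE (-0.15) stayed within 1.5-fold. The summed linear signal of the 21 genes was 6742 to 6987 on the MS-275 arrays and 3480 to 3781 on the corin arrays, beside 8094 to 8229 with vehicle.

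Genes of dedifferentiated melanoma and of the neural crest gave calls both ways. Of 31 genes, 3 were higher (9.68%, against 2.41% of all genes) and 5 lower (16.1%, against 3.64%). The median of the 31 was -0.03, that of all genes. Higher were JUN, SNAI1 (1.35) and SOX9 (1.10), and lower were the receptor ERBB3 (-1.53), nestin (NES, -1.38), ZEB2 (-1.22), the chemokine CCL2 (-1.15) and FOXD3 (-1.03). AXL, a kinase of the invasive state, stood at -0.99, just short of 2-fold. NGFR, the neurotrophin receptor of neural crest stem cells, was alike with both inhibitors. It read 9.15, 9.31 and 9.26 on the MS-275 arrays and 9.02, 9.26 and 9.03 on the corin arrays, all above 7.84, 7.65 and 7.94 with vehicle, and its difference of -0.13 had an interval of -0.36 to 0.09.

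Among motility, adhesion and matrix genes, only HAS2 was among the 12 largest differences downward. This enzyme, which makes hyaluronan, read 7.28, 7.26 and 7.11 on the MS-275 arrays and 3.65, 3.84 and 3.38 on the corin arrays (limma adjusted p = 2.5e-07). It read 8.26, 8.38 and 8.28 with vehicle. MSN, the membrane linker moesin, was level between vehicle (11.33, 11.34 and 11.31) and MS-275 (11.35, 11.26 and 11.29) and lower with corin (9.33, 9.40 and 9.40). MMP14, a membrane-bound metalloproteinase, differed by -1.89 and the interval of the adhesion molecule MCAM, also called lower, was -1.21 to -0.79. The proteoglycan VCAN is taken up again below. On the other side, SNAI1, a repressor of E-cadherin, read 8.46, 8.42 and 8.38 on the MS-275 arrays and 9.84, 9.76 and 9.69 on the corin arrays, and the epithelial adhesion molecule EPCAM differed by 1.34. The list as a whole had 2 of 29 higher (6.9%, against 2.41% of all genes) and 5 lower (17.2%, against 3.64%). Within 1.5-fold lay 16 members, among them VIM (-0.10), FN1 (-0.14) and CD44 (-0.23). The 3 fibroblast markers LUM, DCN and THY1, of which 0 were called, were also summed as linear signal. The sums were 836 to 933 on the MS-275 arrays, 551 to 631 on the corin arrays and 569 to 625 with vehicle. All arrays are of cultured WM983B cells, and a part of fibroblasts in these differences was not tested.

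Neuronal genes, many of them silenced outside the nervous system by REST with CoREST, gave a mixed answer. Of 27 measured, 4 were higher with corin (14.8%, against 2.41% of all genes) and 0 lower, with a median of 0.39 and 10 members within 1.5-fold. SCG3, a secretogranin of dense core vesicles, read 3.48, 3.88 and 3.73 with vehicle, 5.74, 5.53 and 5.59 with MS-275 and 7.97, 8.02 and 7.74 with corin (2.29, 2.05 to 2.54). CHGA, chromogranin A, had a vehicle mean of 4.31 ± 0.304 (SD, n = 3), close to 4.66, 4.55 and 4.58 with MS-275, and above both with corin, at 6.74, 6.81 and 6.62 (2.13, limma adjusted p = 5.9e-07). The calcium sensor SYT4 (1.91) and the synaptic adhesion molecule NRXN2 (1.82) were the others. SYN1, synapsin I, stood at 1 level with both inhibitors. Its signal was 9.20, 9.17 and 9.19 on the MS-275 arrays and 9.18, 9.25 and 9.15 on the corin arrays, against 4.99, 5.03 and 5.01 with vehicle, and the interval of the difference, -0.18 to 0.20, spans no more than 0.2 log2 units to either side. REST itself lay within 1.5-fold. VAMP7, a vesicle SNARE, read 9.12, 9.11 and 9.09 on the MS-275 arrays and 9.12, 9.10 and 9.12 on the corin arrays (-0.18 to 0.19).

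CHGA is shown with its cAMP response element TGACGTCA in capitals, at chr14:92923020-92923149 on the plus strand of GRCh38.p14, as the 1 of the 4 called neuronal genes whose promoter held this motif (NRXN2 had no sequence here).
CHGA: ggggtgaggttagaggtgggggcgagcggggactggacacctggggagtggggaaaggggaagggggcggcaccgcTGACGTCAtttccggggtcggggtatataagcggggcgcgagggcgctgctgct
The match lay 54 to 47 bases before the start. TGACGTCA, which reads the same on both strands, stood in 3 of 22 neuronal genes with a sequence (13.6%), in 3 of 21 immediate early genes (14.3%), in 2.34% of genes tested and in 1.77% of all promoters. It stood in 13 of 235 higher genes (5.53%) and 21 of 441 lower genes (4.76%).

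**Figure D4:**
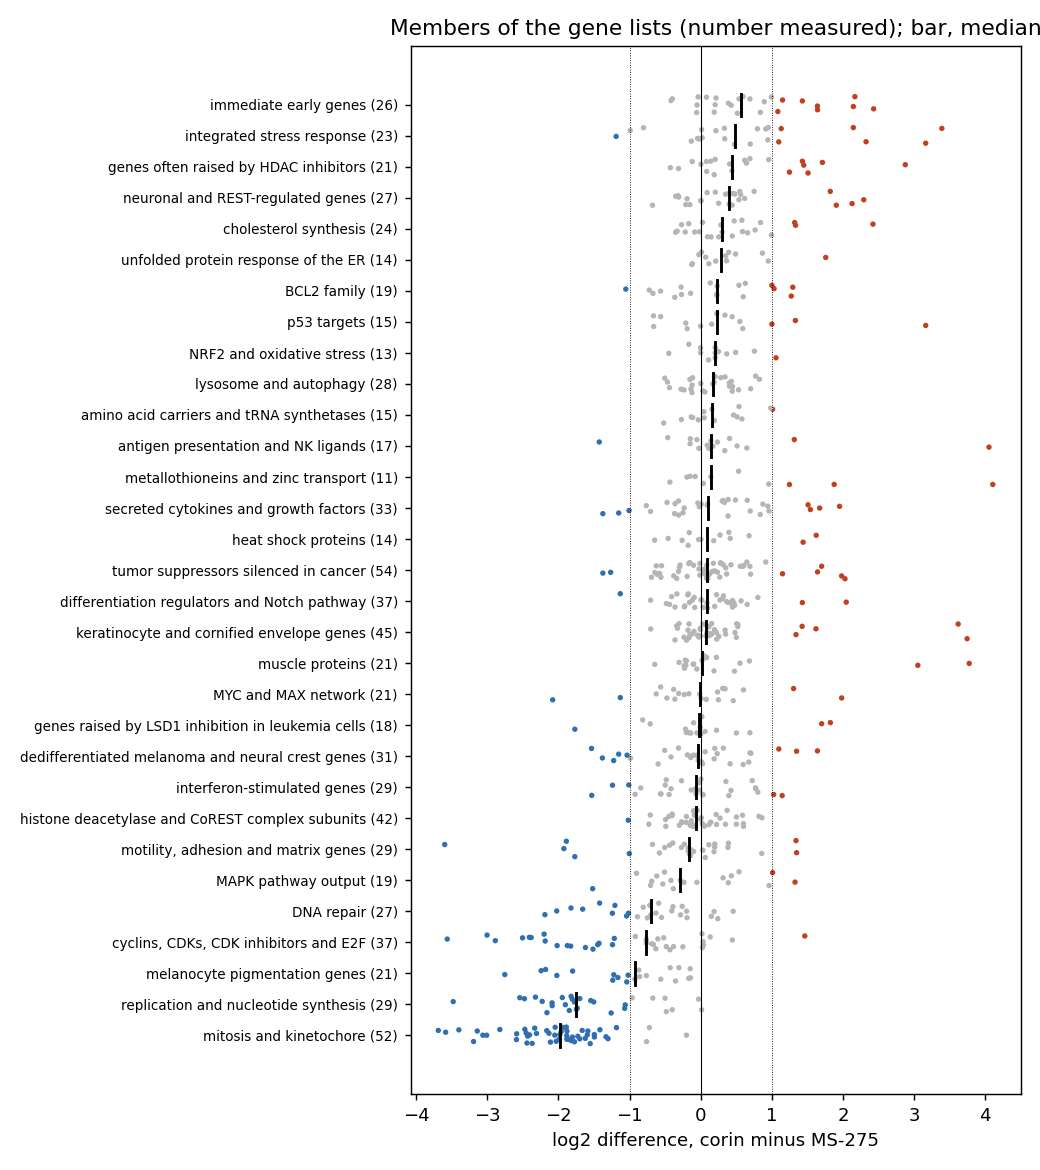
Log2 difference between corin and MS-275 (x axis) for each member of 31 gene lists with more than 10 genes measured (rows, number measured in brackets). Red and blue points are called higher and lower, grey points not called, black bars are list medians and dotted lines mark 2-fold. The cell division, DNA repair and pigmentation lists lie to the left, and the medians of the other lists lie between -0.29 and 0.57.

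Among 21 genes that HDAC inhibitors often raise in cell lines, 6 were higher with corin (28.6%, against 2.41% of all genes) and 0 lower. The list median was 0.44. CPA4, a carboxypeptidase first found through HDAC inhibition, read 4.53, 4.43 and 4.75 with vehicle, 6.15, 6.12 and 5.95 with MS-275 and 8.99, 9.05 and 8.81 with corin (2.88, 2.64 to 3.11). CLU, the chaperone clusterin, and the reductase DHRS2 showed the same steps, with differences of 1.71 and 1.45. The secreted hormone STC1 differed by 1.51, and MT1X and KLF2 by the values above. TXNIP (0.08), CRIP1 (0.00), UCHL1 (-0.12) and THBS1 (-0.31) were alike within 1.5-fold.

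Genes that LSD1 inhibitors raise in leukemia cells gave few calls, in both directions. Of 18 measured, 2 were higher (11.1%, against 2.41% of all genes), CSF1R, the receptor of macrophage colony-stimulating factor, and the factor IRF8. The list median was -0.03, as over all genes. CSF1R read 5.45, 5.49 and 5.46 on the MS-275 arrays and 7.36, 7.25 and 7.26 on the corin arrays, with 4.62, 5.21 and 4.82 on the vehicle arrays, and every corin array was above every other (1.82, 1.64 to 2.01). IRF8 differed by 1.70. VCAN, the 1 lower member (5.56%, against 3.64% of all genes), is given below. Within 1.5-fold lay 11 members, among them SPI1 (-0.05), CD14 (-0.01), CD86 (-0.20) and GFI1 (0.22), and LYZ stood at -0.82. The summed linear signal of the 6 immune markers was 2918 to 2954 with MS-275 and 2513 to 2689 with corin. Most of that sum is CD68, with log2 means of 11.44 with MS-275 and 11.26 with corin and no call. All arrays are of cultured WM983B cells, and a part of immune cells in CSF1R and IRF8 was not tested.

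The transcripts of the targets themselves differed little. KDM1A (LSD1) read 9.42, 9.31 and 9.35 on the MS-275 arrays and 9.22, 9.24 and 9.02 on the corin arrays (-0.20, -0.42 to 0.01, limma adjusted p = 0.142), HDAC1 8.61, 8.69 and 8.55 on the MS-275 arrays and 8.44, 8.41 and 8.66 on the corin arrays (-0.34 to 0.11) and HDAC2 6.27, 6.44 and 6.59 on the MS-275 arrays and 6.36, 6.48 and 6.52 on the corin arrays (-0.22 to 0.26). All 3 lay within 1.5-fold, although the KDM1A arrays did not overlap between the inhibitors. HDAC3 was higher below 2-fold, from 7.12, 7.17 and 7.32 to 7.91, 7.78 and 7.73 (0.60, limma adjusted p = 0.00123). RCOR1, the scaffold of CoREST, differed by 0.37 (0.16 to 0.58), the paralog RCOR2 by 0.50, and the subunit HMG20B by -0.71. HDAC5 (0.82) and MIDEAS (0.86), which joins HDAC1 and HDAC2 in a mitotic complex, had the highest values and were below 2-fold. SIN3A, the scaffold of the SIN3 complex, gave 0.03 (-0.16 to 0.21). Over the 42 subunits of HDAC and CoREST complexes 0 were higher, 1 was lower (2.38%, against 3.64% of all genes) and 27 were within 1.5-fold. The lower one was CHD3, a remodeler of NuRD, at -1.02, and it was below 2-fold without MS-275 replicate 3 (-0.99), without corin replicate 1 (-0.98) or without corin replicate 3.

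**Figure D5:**
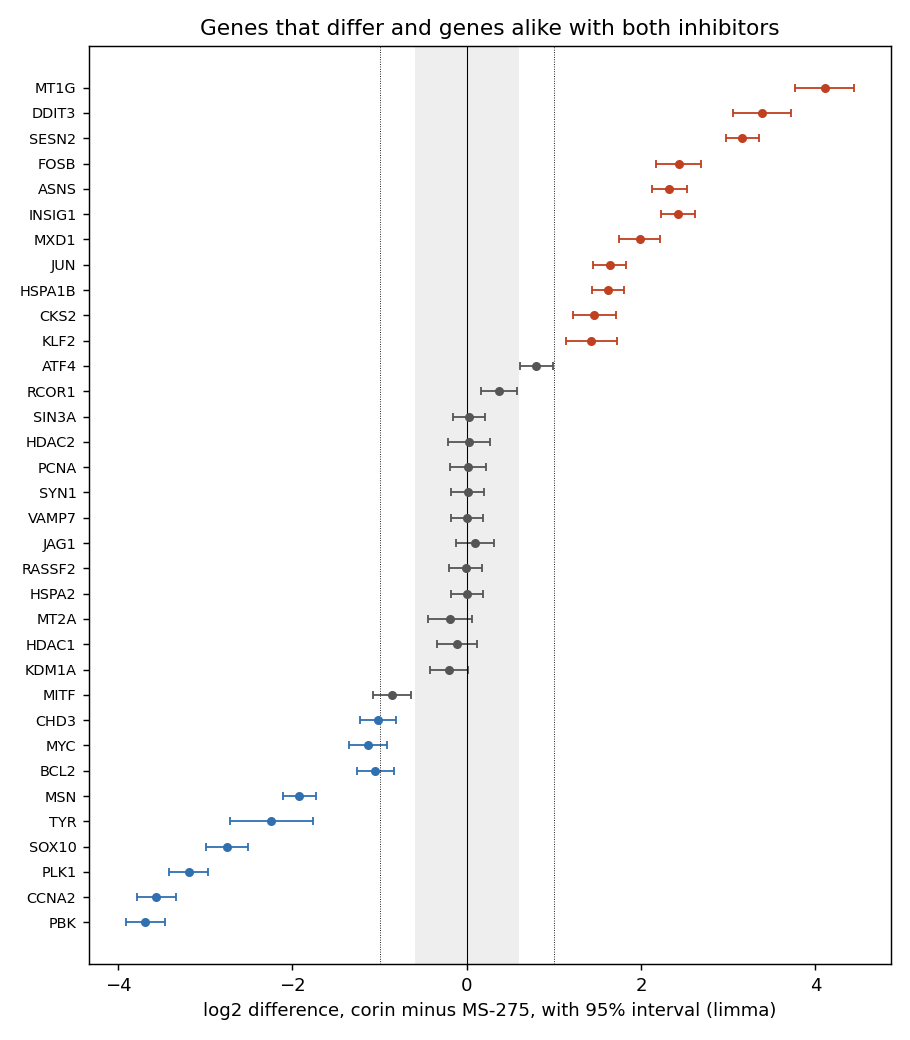
Log2 difference between corin and MS-275 (x axis) with its 95% interval from limma for 34 named genes (y axis). Red and blue are genes called higher and lower, grey genes are not called, the shaded band is a 1.5-fold difference and dotted lines mark 2-fold. The intervals of KDM1A, HDAC1, HDAC2, SIN3A, SYN1, VAMP7 and PCNA lie within the band.

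Of 54 tumor suppressors known for silencing in cancers, 5 were higher (9.26%, against 2.41% of all genes). The 2 lower ones (3.70%) were near the share of all genes, 3.64%. Within 1.5-fold lay 30 of the 54, against 62.8% of all genes, and the median was 0.09. The higher ones were the matrix inhibitor TFPI2 (2.03), MXD1, IRF8, SIK1 and EGR1, of which the last 4 also count in lists above. Lower were the WNT antagonist DKK1 (-1.37) and PYCARD (-1.27), the adaptor of inflammasomes. RASSF1 (0.24), RASSF2 (-0.01), SFRP1 (-0.02) and DKK3 (0.16) lay within 1.5-fold. Of 37 differentiation regulators and Notch pathway genes, the ligand DLL4 (2.05) and KLF2 were higher and the Notch effector HEY1 was lower (-1.13). These are 5.41% higher, against 2.41% of all genes, and 2.7% lower, against 3.64%. The list median was 0.09, and 17 members lay within 1.5-fold, among them JAG1 (0.10), NOTCH2 (0.27) and GATA6 (0.04).

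Some epidermal and muscle genes were higher, while the defining markers of those cells were not. Of 45 genes listed as keratinocyte and cornified envelope, 5 were higher (11.1%, against 2.41% of all genes) and 0 lower (median 0.08). The higher ones were LCE1F, SLPI, KRT20 (1.62), filaggrin (FLG, 1.43) and EPCAM. Not all listed genes are particular to keratinocytes, and EPCAM also counts in the motility list. The keratins that define keratinocytes stayed low and level, with KRT5 at 3.57, 3.61 and 3.45 on the MS-275 arrays and 3.64, 3.82 and 3.54 on the corin arrays and KRT14 at 4.20, 3.82 and 4.18 on the MS-275 arrays and 4.30, 3.98 and 4.38 on the corin arrays. The summed linear signal of the 5 keratinocyte markers was 70 to 72 on the MS-275 arrays and 66 to 70 on the corin arrays. Of 21 muscle proteins, 2 were higher (9.52%, against 2.41% of all genes). They were XIRP1 and ANKRD1 (3.05), a nuclear ankyrin protein of heart muscle that other stressed cells also make. MYOD1 (0.09), MYOG (-0.10) and desmin (DES, -0.05) lay within 1.5-fold. The summed linear signal of the 21 genes, with XIRP1 and ANKRD1 in it, was 795 to 843 with MS-275 and 2484 to 2654 with corin.

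Cell surface and cytokine genes were called in both directions. Of 17 genes of antigen presentation and natural killer ligands, 2 were higher (11.8%, against 2.41% of all genes) and 1 lower (5.88%, against 3.64%). Beside ULBP1, the checkpoint ligand CD274 (PD-L1) was higher, with 5.73, 5.89 and 6.09 on the MS-275 arrays and 7.04, 7.41 and 7.21 on the corin arrays (1.32), and tapasin (TAPBP), which loads peptides on MHC class I, was lower (-1.43). The related ligands ULBP2 (-0.05), ULBP3 (0.51), MICA (0.65) and MICB (0.34) were not called. Of 29 interferon-stimulated genes, IRF7 (1.15) and RSAD2 (1.03) were higher and IFIT3 (-1.53), SAMD9L (-1.24) and the RNA sensor IFIH1 (-1.01) lower. These are 6.9% higher, against 2.41% of all genes, and 10.3% lower, against 3.64%. RSAD2 was no longer called without MS-275 replicate 2 (0.94), corin replicate 1 (0.95) or corin replicate 2 (0.96). Of 33 cytokines and growth factors, 4 were higher (12.1%, against 2.41% of all genes) and 3 lower (9.09%, against 3.64%). CCL5 (1.95), CCL20 (1.67), IL24 (1.54) and STC1 were higher and DKK1, CCL2 and neuregulin (NRG1, -1.01) lower.

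Sterol genes were partly raised. In 24 genes of cholesterol and lipid synthesis, 3 were higher (12.5%, against 2.41% of all genes) and 0 lower. The list median was 0.29, and 13 members lay within 1.5-fold. INSIG1, which holds the sterol sensor SCAP in the ER, read 7.83, 7.95 and 7.87 on the MS-275 arrays and 10.37, 10.30 and 10.25 on the corin arrays, and 7.65, 7.54 and 7.47 with vehicle, so MS-275 lay within 0.5 log2 units of vehicle and corin 5.36-fold above MS-275 (limma adjusted p = 2.6e-07). HMGCS1, an early enzyme of the pathway, differed by 1.33 and the sterol carrier STARD4 by 1.32. IDI1 stood at 0.99 and was called at 1.01 to 1.04 when any of 4 arrays was left out, while DHCR7 (0.28), FDPS (-0.27) and SCD (-0.35) were within 1.5-fold.

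In the BCL2 family, 4 of 19 genes were higher (21.1%, against 2.41% of all genes) and 1 lower (5.26%, against 3.64%). BCL2, the founding survival factor, read 7.43, 7.49 and 7.37 on the MS-275 arrays and 6.29, 6.34 and 6.50 on the corin arrays (-1.05, -1.26 to -0.84), and its relative BCL2L1 (BCL-XL) was at -0.72 without a call. The death-promoting BH3 proteins BIK (1.27), BCL2L11 (BIM, 1.03) and PMAIP1 were higher, and so was the survival factor BCL2A1 (1.30). PMAIP1 lay at the threshold and fell below 2-fold under median centring (0.98), quantile normalization (0.93), without MS-275 replicate 1 (0.99) and without corin replicate 2 (0.97). BCL2L11 fell below it without MS-275 replicate 3 (0.99) or corin replicate 1 (0.95).

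For 13 of the 900 called genes the vehicle mean lay nearer to corin than to MS-275, so MS-275 was the inhibitor farther from vehicle. VCAN, a proteoglycan of the matrix, read 5.70, 5.76 and 5.84 with vehicle, 7.08, 7.13 and 7.13 with MS-275 and 5.27, 5.53 and 5.24 with corin. It was -1.77 between the inhibitors, and -0.95 and not called as the mean of its probes. DKK1 read 7.07, 7.16 and 7.21 with vehicle, 8.26, 8.14 and 8.05 with MS-275 and 6.90, 6.72 and 6.71 with corin. CD96, a receptor of T and natural killer cells, read 4.71, 4.63 and 4.42, 6.01, 5.99 and 5.99 and 4.52, 4.70 and 4.56 in the same order, a return to the vehicle range (-1.40). The growth factor FGF7 went from 3.95, 3.81 and 3.63 to 5.08, 4.86 and 4.78 and 3.13, 3.11 and 3.61. OLFM2, PDGFRL, TMEM163, GRIP1, SQOR, FCRLA and ADCY6 were also lower with corin than with MS-275 and nearer to vehicle, and MIR5047 and ZNF440 were higher with corin, both below vehicle with MS-275. In the 11 lower genes the level above vehicle seen with MS-275 was not seen to that height with corin at the same dose.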

How the data were processed

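Affymetrix Human Gene 2.0 ST arrays measured RNA of WM983B cells. The deposited values are log2 signals of 53617 probes on 9 arrays, made by the authors with RMA and Partek, with hg19 named in the submitters' processing notes. Of these probes 16098 had 1 gene symbol, 0 several and 37519 none here. A gene with several probes (779 of 14884) was represented by its brightest probe (mean of the 9 arrays). The probe table's symbols were matched to a RefSeq table.

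The 3 corin and 3 MS-275 arrays were fitted with limma 3.58.1 in R 4.3.3 (lmFit, eBayes) with no further normalization or filter on dim probes, and p-values were adjusted over the 16098 probes. Where genes were called alike, the 95% interval of the difference lay within 1.5-fold. The smallest 2-sided exact permutation p at 3 against 3 is 0.1, so no such test is given. The methods' analysis of variance was an alternative.

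Gene lists were described by counts and medians without a set test, and the comparison, lists and named genes were chosen with earlier results of these data known. Named were the 12 called genes with the largest difference each way whose arrays did not overlap and whose higher mean reached the median probe (without unnamed, antisense, microRNA and small RNA symbols), the 4 list members farthest from zero in each list, and genes the study names for these arrays where a probe carries their symbol here. Members named beyond these were chosen after their values were seen. Not all genes that meet the rule are printed. Promoters were RefSeq sequences on GRCh38.p14, searched over 250 bases before the start.

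On simulated arrays for corin against MS-275, run on the 16098 probes, limma called 2% of 50 genes changed by 0.75 log2 units, 90% at 1.25, 96% at 1.5 and 100% at 2, with 2 of 15898 unchanged probes called. The settings varied were a block for the replicate number, all 9 arrays in the fit, other thresholds and eBayes settings, brighter probes only, the mean of a gene's probes, all probes tested, median centring, quantile normalization and each array left out in turn. Plots came from matplotlib 3.10.9 (Python 3.11.15).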

Additional observations from a re-analysis of the deposited data

Results flagged for a closer look

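Probes without a gene symbol here also differed between the inhibitors. Of 37519 such probes, 956 were higher and 455 lower with corin than with MS-275 by limma at the same thresholds, together 1411. They lie outside the comparison, which took probes with a symbol. What they measure was not analysed here.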

How the results depend on the processing

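In the settings run, 0 genes that were called changed sign. The counts of 358 higher and 542 lower genes were the same with the replicate number as a block, where numbers do not pair the arrays (r of deviations 0.028, -0.064 and -0.020 for same-numbered arrays), and ranged from 349 to 375 and 528 to 571 when an array was left out, 346 and 530 with the mean of probes, 338 and 574 after median centring, 343 and 550 after quantile normalization, and 284 and 443 among 7642 brighter genes. Only dropping the fold threshold moved them by over 1.5 times, to 2405 and 2859. With that, the stress list gave 14 members higher and 3 lower, the metallothionein list 5 higher and the pigmentation list 18 lower. Genes within 1.5-fold numbered 4131 among brighter probes only and 8324 to 8874 with an array left out. The stress list's single lower member became 2 at the fold of 2 SD of all probes (1.91) and after median centring, 0 among brighter probes, and 1 to 2 with an array left out, where the other counts of that list were 5 to 7. The 10 lower pigmentation genes numbered 9 to 10 with an array left out. Of the 147 genes named by rule, 13 crossed the threshold in at least 1 of the settings run on single genes, 24 values falling below it and 6 passing it. Genes named beyond the rule, among them KIT, IFIH1 and NRG1 near 2-fold, were not run singly. Single genes were not run at the fold of 2 SD or without a fold threshold, so calls that change there are not counted. Genes near 2-fold are therefore less settled than those far from it. The number of arrays limits the intervals.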

Other observations

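Families of repeated gene copies, chosen after their values were seen, held several of the larger differences. Of 6 measured members of the MIR3689 microRNA cluster, 5 were higher in the corin arrays, with a median log2 difference of 2.59. MIR3689E, the highest of them, read 3.86, 3.75 and 3.86 on the MS-275 arrays and 7.24, 7.59 and 7.42 on the corin arrays and 3.07, 3.64 and 3.04 with vehicle. MIR3689D1 was the member not called, at 0.63. All 4 USP17L deubiquitinase copies were higher, between 2.64 and 3.79, and so were 3 of 4 MBD3L methyl-CpG binding protein copies, with MBD3L2 at 1.83, MBD3L3 at 1.79 and MBD3L1 at -0.04. Of 14 PRAMEF genes 3 were higher and 0 lower, with a median of 0.02. Of 6 GOLGA6L genes 3 were higher, and all 3 NPIP genes were higher (1.36 to 1.52). Among all genes tested 2.41% were higher. Members of such families share sequence, so their signals are not separate measurements of each copy.

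By kind of transcript, 2.45% of 11915 protein coding genes were higher and 4.32% lower. Of 1398 long noncoding RNA genes 2.22% were higher and 1.5% lower, of 1072 microRNA genes 1.12% and 0.187%, and of 447 transcribed pseudogenes 4.03% and 0.895%. Of 43 KIF genes, most of them kinesins, 12 were lower and 2 higher, with a median log2 difference of -0.11. Of 85 keratin-associated protein genes 8 were higher and 0 lower, with a median of -0.0055, so most of that family differed little. Over all genes tested 2.41% were higher and 3.64% lower.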
